A study of Mus musculus with 96 samples.

Results

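The comparison described here set the perivenous zone of the liver lobule against the periportal zone in HetKO HFD mice. It took the areas of illumination (AOIs, the small tissue regions from which probe tags are collected) whose sample names gave Het KO, HFD and either the perivenous or the periportal zone, which made 24 of the 96 AOIs of the series. There were 12 AOIs per zone, 3 from each zone of each of 4 mice. The HetKO mice are heterozygous for a whole-body disruption of Gaa, the gene of lysosomal acid alpha-glucosidase, made by way of LoxP sites around exons 4 and 5 and backcrossed to C57BL/6. All mice used here were male, were about 8 weeks old at the start and ate their diet, high-fat or low-fat, for 15 weeks, and liver sections 5 µm thick were cut from fixed, paraffin-embedded tissue. Both zones therefore shared the genotype, the diet and the slide, and a zone difference was taken within each mouse. HetKO LFD mice (the same allele on a low-fat diet) and Wt HFD mice (unaltered Gaa on the high-fat diet), with 4 mice and 24 AOIs each, were used to ask whether the zone differences differed. They also served to compare the level of Gaa. Wt LFD mice (unaltered Gaa on the low-fat diet), again 4 mice and 24 AOIs, entered only that Gaa comparison and the alternative fits of all 16 mice. By the slide names in the AOI summary, all HFD sections lay on 1 slide and all LFD sections on another, so diet and slide cannot be told apart. The AOIs had been placed by protein stains for E-cadherin, the product of Cdh1, and for Cyp2e1. The choice of regions thus bears on these 2 genes, and a zone difference in either is no finding.

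Blood flows through the lobule from the portal tract to the central vein, and hepatocytes along this path divide the work of the liver. Periportal cells, which meet oxygen- and nutrient-rich blood first, are known for urea synthesis, gluconeogenesis, amino acid breakdown and the secretion of many plasma proteins. Perivenous cells around the central vein are known for glutamine synthesis, drug oxidation by cytochromes P450 and bile acid synthesis, a program kept up by Wnt signals from the central vein. AOIs hold several cell types, so fewer cells of a type and less RNA per cell cannot be told apart.

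A value is the deduplicated count of a gene scaled so that the third quartile of all targets was 60.2 in every AOI, and is called the scaled count below. For each mouse and zone the mean of log2(scaled count + 1) over 3 AOIs was used, and the value printed for a mouse is that mean turned back to the linear scale. Deduplicated reads ran between 300140 and 1304024 in perivenous AOIs and between 196322 and 937498 in periportal AOIs. The negative probe, which matches no mouse transcript, stood at 25.8 ± 1.8 in perivenous and 23.6 ± 2.6 in periportal AOIs (SD over 4 mice), so scaled counts near this level are background. The median gene was 1.78 ± 0.09 times the negative probe perivenously and 1.93 ± 0.16 times periportally. The instrument's limit of quantitation, set from the negative probes, was passed by 40.4% ± 4.3 of genes perivenously and by 39.2% ± 5.2 periportally. Perivenous AOIs held 204 ± 49 nuclei and periportal AOIs 279 ± 108, and the reads per nucleus were 3121 ± 1046 perivenously and 2149 ± 1244 periportally (SD, n = 4 mice each). Scaling by nuclei in place of the third quartile moved the median log2 difference of all genes to 0.73, against 0.03, so every direction below is relative to the other genes of the same AOI. Gaa itself had 46.7, 36.3, 36.5 and 40.6 perivenously and 39.8, 55.5, 42.6 and 27.7 periportally in the HetKO HFD mice, against 38.8 to 54.5 and 38.8 to 55.1 in the Wt HFD mice. Over both zones Gaa was 0.21 lower on the log2 scale in HetKO HFD than in Wt HFD mice, which an exact permutation test of the 4 and 4 mice did not separate (two-sided p = 0.143, smallest possible 0.0286). On the low-fat diet Gaa had 37 to 55.3 perivenously and 40.8 to 58.9 periportally in HetKO mice, against 57.4 to 69.9 and 67.2 to 80.2 in Wt mice, a log2 difference of -0.50 (two-sided exact permutation p = 0.0286, the smallest possible). In HetKO HFD mice Gaa was over the limit of quantitation in 3 of 12 perivenous and 3 of 12 periportal AOIs, and so near background. The negative probe stood at 30.6 perivenously and 29.7 periportally in Wt HFD mice. The part of background in the Gaa differences was not tested. The sources used here do not say whether the Gaa probe lies in the disrupted part.

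Of 7394 genes tested, 120 (1.62%) were called between the zones, which took an adjusted p below 0.05 and a log2 difference of 0.80 or more in either direction, with 58 (0.784%) higher perivenously and 62 (0.839%) lower perivenously. At the adjusted p alone, 196 genes (2.65%) were higher and 198 (2.68%) lower. Scaling by nuclei turned the split by adjusted p into 4110 higher and 15 lower, and subtracting the negative probe into 164 higher and 255 lower. The median log2 difference of the called genes was 1.17 for those higher and -1.04 for those lower, and 11 of the higher and 5 of the lower genes differed by at least 2. In all 4 mice the sign was the same for 58 of 58 higher and for 61 of 62 lower genes, the exception being Hamp2, which was not lower in mouse 4. With 4 pairs an exact permutation test over sign changes cannot go below p = 0.13, above the threshold of 0.05 for any gene. Well-detected genes were called more often than dim ones: 6.17% of the 891 genes over the limit of quantitation in all 24 AOIs, 2.84% of the 1759 over it in 12 to 23, 0.373% of the 4017 over it in 1 to 11 and 0 of the 727 over it in none. Lists below are counted at the adjusted p alone, beside shares of 2.65% higher and 2.68% lower for all genes. For lists of mostly well-detected genes these shares are a low background.

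**Figure D1:**
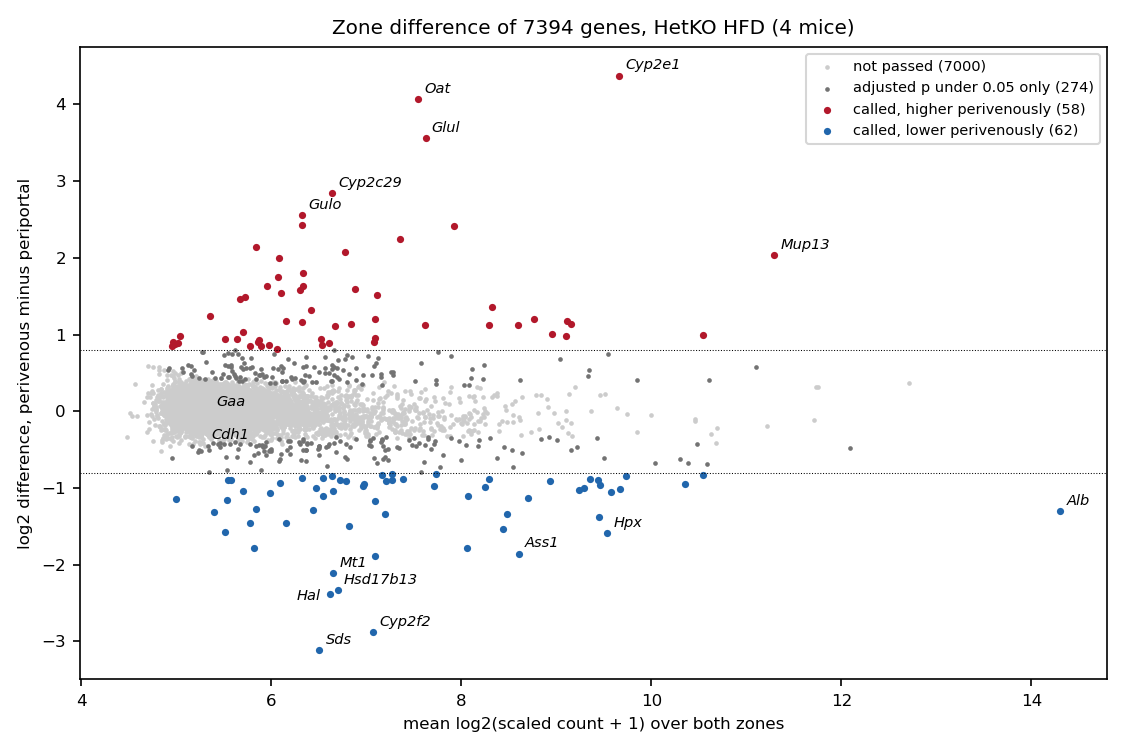
Each point is 1 of 7394 genes, with its mean log2(scaled count + 1) over both zones on the x axis and its log2 difference, perivenous minus periportal, on the y axis (mean of 4 HetKO HFD mice). The dotted lines mark 0.80 in either direction: 58 red genes lie above, led by Cyp2e1, Oat and Glul, and 62 blue genes below, led by Sds, Cyp2f2 and Hal, while Gaa and Cdh1 sit among the grey genes near 0.

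The zone names were checked first. Cyp2e1, the P450 that oxidises ethanol and many small molecules (mm10 chromosome 7, 140763819 to 140774990), had 4719, 3574, 2952 and 3679 scaled counts in the perivenous zone of mice 1 to 4, against 161, 187, 199 and 163 in their periportal zone. Every perivenous mean lay above every periportal one, and the log2 difference was 4.37 ± 0.12 (SE, n = 4 mice, as for all log2 differences below). Cdh1, E-cadherin, whose stain marked the periportal zone, had 26.4, 30.4, 43.3 and 32.9 perivenously and 46.9, 36.3, 40.4 and 59.6 periportally. Its zones overlapped and mouse 3 went the other way, with a log2 difference of -0.45 ± 0.14 and an adjusted p of 0.071. It was over the limit of quantitation in 0 perivenous and 5 periportal AOIs, and it passed without mouse 2 (adjusted p = 0.033) or mouse 3 (0.022). The 4 markers not used for staining separated the zones in every mouse. Cyp2c29, a drug-oxidising P450 (chromosome 19, 39287044 to 39330713), had 302, 269, 205 and 303 perivenously, against 28.2, 32.2, 41.5 and 46 periportally. Oat, ornithine aminotransferase (chromosome 7, 132557475 to 132576398), had 1009, 616, 515 and 1080.2 perivenously, against 36.9, 51.5, 42.8 and 48.7 periportally. In both genes the periportal values lay little above the negative probe, and the 12 perivenous AOIs lay above the 12 periportal AOIs. Cyp2f2, a P450 of the periportal zone (chromosome 7, 27119955 to 27133660), had 50.1, 52.6, 45.3 and 47.1 perivenously and 321, 352, 292 and 537 periportally. Hal, histidine ammonia-lyase, which opens histidine breakdown (chromosome 10, 93488768 to 93516761), had 45.4, 39.6, 46.6 and 37.4 perivenously and 177, 222, 232 and 269 periportally. For these 2 the perivenous AOIs all lay below the periportal ones, with log2 differences of -2.88 ± 0.12 and -2.38 ± 0.12. Of 20 perivenous hepatocyte markers tested, 19 were higher and 0 lower, with a median of 1.69 against 0.03 for all genes. Of 27 periportal markers, 22 were lower and 0 higher, with a median of -1.27. The markers were listed for their known zones, but with earlier results of these data known, so these counts are no independent check of the labels. Cyp2e1 among them is no check at all, as its stain had placed the AOIs.

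**Figure D2:**
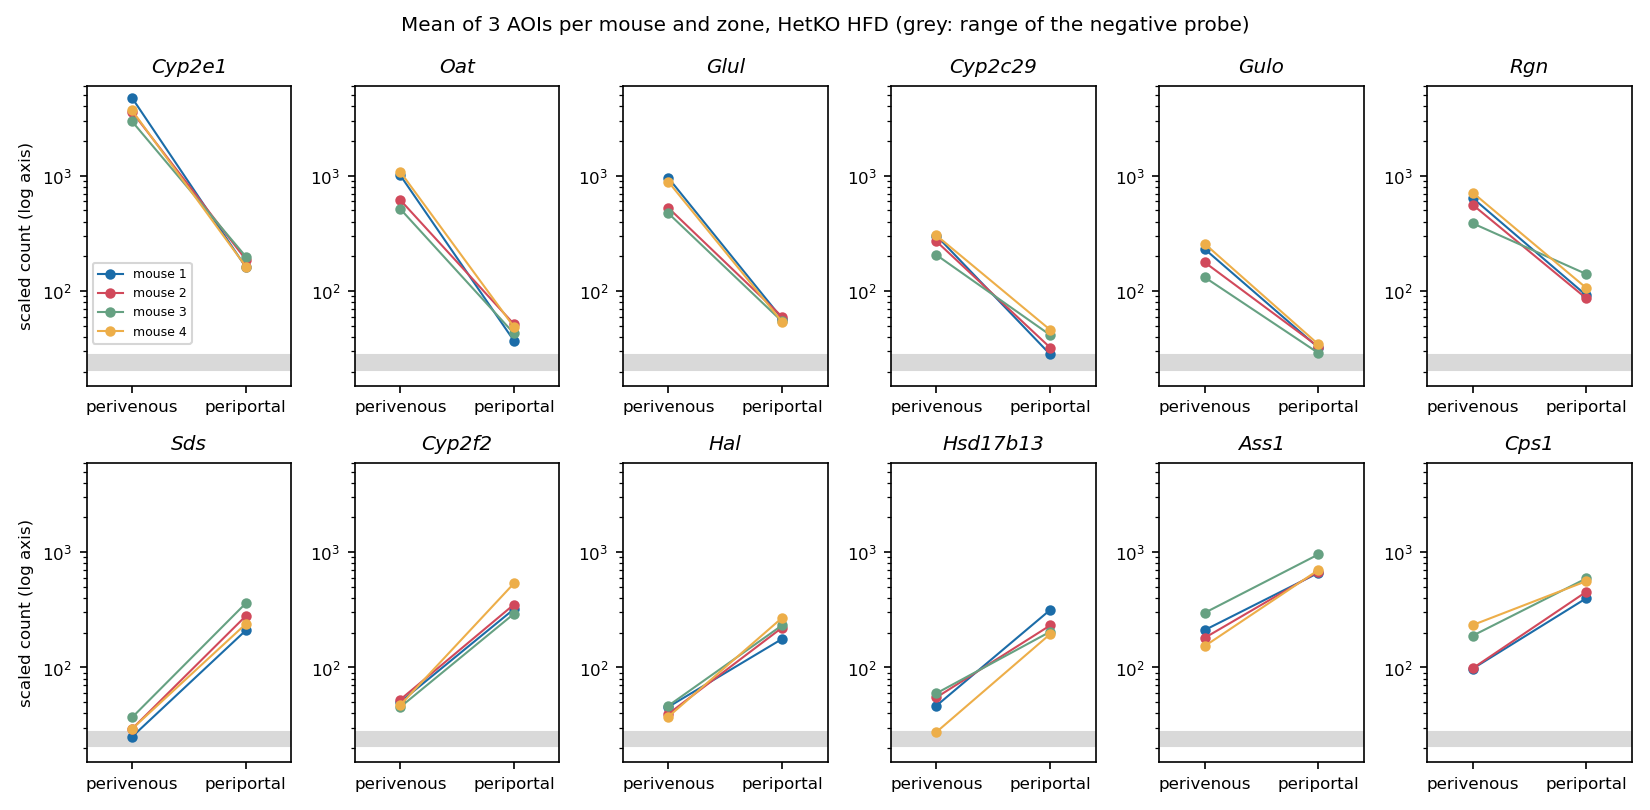
Scaled counts (log axis) of 12 genes in the perivenous and the periportal zone of the 4 HetKO HFD mice, each point the mean of 3 AOIs of 1 mouse, with lines joining the zones of a mouse and the grey band giving the range of the negative probe. The 6 genes of the upper row are higher perivenously in every mouse and the 6 of the lower row lower, and the low zone of Sds, Cyp2c29 and Gulo comes close to the band.

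After Cyp2e1, the largest rises perivenously were those of Oat, Glul, Cyp2c29 and Gulo. Glul, glutamine synthetase, which binds free ammonia to glutamate, had 957, 526, 472 and 885 perivenously, against 57.5, 59.8, 54.3 and 54.1 periportally, a log2 difference of 3.56 ± 0.13. Its periportal values were nearly equal in the 4 mice, while its perivenous values were about as far apart as those of Oat, with mice 1 and 4 high and mice 2 and 3 low in both genes. Slc1a2, the glutamate carrier, had 168, 93.3, 92.2 and 139.7 perivenously and 24.9, 29.7, 21.7 and 29.3 periportally, and was over the limit of quantitation in all 12 perivenous AOIs and in 0 periportal ones. Gulo, gulonolactone oxidase, the last enzyme of vitamin C synthesis, had 231, 177, 132 and 257 perivenously and 32.3, 32.9, 29 and 34.5 periportally. Rgn, the gluconolactonase of the same route, had 639.9, 559, 386 and 713 perivenously and 91.4, 86.1, 140.0 and 106 periportally. Mouse 3 had the smallest zone gap in both of these genes, being lowest perivenously. The 15 largest rises were taken among called genes with no overlap of mouse means, which left out Mup13 (2.04). The rest of these 15 were Cyp2a4 (2.43 ± 0.13), the secreted ribonuclease Rnase4 (2.24 ± 0.14), the fatty aldehyde dehydrogenase Aldh3a2 (2.07 ± 0.14), Cyp2c37 (2.00 ± 0.15), Cyp1a2 (1.80 ± 0.14), the hepatokine Lect2 (1.75 ± 0.14), the biliverdin reductase Blvrb (1.64 ± 0.11) and Cyp2c50 (1.63 ± 0.14). For all 15 the 12 perivenous AOIs lay above the 12 periportal AOIs, and the largest adjusted p among them was that of Cyp2c50 (3.5e-10). Among called genes outside the naming rule, chosen after their values were seen, were the paraoxonase Pon1 (1.59 ± 0.12), the retinol dehydrogenase Rdh16 (1.58 ± 0.11) and the thyroxine-binding globulin Serpina7 (1.46 ± 0.13).

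Of 11 tested genes listed as Wnt and beta-catenin targets, 9 were higher perivenously and 0 lower, with a median of 1.32 against 0.03 for all genes. Of these 9, all but Notum are also among the perivenous markers: Cyp2e1, Oat, Glul, Slc1a2, Cyp1a2, Nr1i3, Ahr and Slc13a3. The stain for Cyp2e1 had placed the AOIs, so its rise is no finding here. Nr1i3, the drug-sensing receptor CAR, had 177, 155, 98 and 122 perivenously and 65.3, 61.6, 55 and 36.3 periportally. Notum, a secreted Wnt inhibitor, had 37, 36.2, 44.7 and 58.7 perivenously and 15.2, 21.5, 30.1 and 27.5 periportally. Notum stayed near background, over the limit of quantitation in 2 of 12 perivenous and 0 of 12 periportal AOIs, although its mouse means did not overlap. Ahr, the aryl hydrocarbon receptor, differed by 0.77 ± 0.14 and was likewise dim, over the limit in 4 perivenous and 0 periportal AOIs, and the carboxylate carrier Slc13a3 differed by 0.59 ± 0.15 and no longer passed (adjusted p = 0.133 without mouse 1, 0.058 without mouse 3 and 0.073 without mouse 4).

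The largest falls perivenously were those of Sds, Cyp2f2, Hal, Hsd17b13 and Mt1. Sds, serine dehydratase, which turns serine into pyruvate, had 25.1, 29.4, 36.9 and 29.4 perivenously, against 209.9, 279.9, 361 and 239 periportally, a log2 difference of -3.12 ± 0.11. The perivenous values were at the negative probe's level and none of the 12 perivenous AOIs passed the limit of quantitation, while all 12 periportal AOIs did, so background was most of the perivenous value. Hsd17b13, a lipid droplet protein, had 46.6, 55, 59.7 and 27.5 perivenously and 316, 232, 204 and 195 periportally. Mouse 4 was low in both zones and mouse 1 high periportally, and the zones did not overlap. Mt1 and Mt2, the metallothioneins, had log2 differences of -2.11 ± 0.13 and -1.45 ± 0.13, with Mt1 at 44.3, 48.3, 64.2 and 36.6 perivenously and 306, 172, 227 and 155 periportally. Hamp, hepcidin, the hormone that limits iron export, had 64.6, 33.8, 80.2 and 135 perivenously and 223, 151, 429 and 319.6 periportally. It varied widely between mice in both zones, its means did not overlap, but single AOIs of the zones did. Etnppl, which breaks down phosphoethanolamine, had 30.1, 34.4, 23.9 and 30.2 perivenously and 62, 142, 121 and 108 periportally, with mouse 1 lowest periportally. The others among the 15 largest falls were Cyp2f2, Hal, Ass1, Cps1, the heme carrier Hpx (-1.58 ± 0.12), the amino acid transport subunit Slc3a1 (-1.58 ± 0.13), Arg1, the polymeric immunoglobulin receptor Pigr (-1.49 ± 0.11) and Hsd17b6 (-1.45 ± 0.13), and the largest adjusted p was that of Hsd17b6 (1.0e-09).

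Nitrogen handling was split between the zones. Of 10 tested genes of the urea cycle and ammonia list, 6 were lower perivenously and 1, Glul, higher, with a median of -0.50 that became 0.22 under scaling by nuclei. Cps1, carbamoyl-phosphate synthetase, the entry step, had 97.6, 98.3, 189 and 233 perivenously and 399, 454, 593 and 561 periportally. Mice 3 and 4 were higher than mice 1 and 2 in both zones, and every mouse kept its gap. Ass1, argininosuccinate synthase, had 211, 180.4, 297 and 153 perivenously and 661, 678, 956 and 699.8 periportally. Arg1, arginase, had 184, 181, 249.7 and 204 perivenously and 549.6, 627, 662 and 527 periportally. Asl, argininosuccinate lyase, had 90.9, 91.2, 98.1 and 84.8 perivenously and 179.7, 266, 259 and 229.9 periportally. No mouse mean of any of the 4 enzymes reached into the other zone's range. The log2 differences were -1.78 ± 0.12, -1.85 ± 0.11, -1.53 ± 0.10 and -1.33 ± 0.11 in that order, and all 4 kept a negative sign when scaled by nuclei. Asl did not pass under that scaling (limma adjusted p = 0.077). The smaller differences were those of the ornithine carrier Slc25a15 (-0.53 ± 0.11) and of Otc, ornithine transcarbamylase (-0.46 ± 0.11), both of which turned positive under scaling by nuclei. Otc no longer passed (adjusted p = 0.078 without mouse 3).

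Of 16 tested genes of glutamine, glutamate and proline handling, 5 were higher and 5 lower perivenously, with a median of -0.03 (0.68 under scaling by nuclei). The higher ones were Oat, Glul, Slc1a2 and the proline-degrading Prodh (0.61 ± 0.11) and Aldh4a1 (0.45 ± 0.11), and the last no longer passed (adjusted p = 0.065 without mouse 1 and 0.147 without mouse 2). The lower ones were led by Gls2, the liver glutaminase that frees ammonia from glutamine, with 23.9, 21.7, 29.8 and 28.5 perivenously and 45.1, 52.1, 85.7 and 92.8 periportally. Gls2 was thus at background perivenously, over the limit of quantitation in 0 of 12 AOIs there and in 9 of 12 periportally. Got1, aspartate aminotransferase, differed by -1.06 ± 0.12, the arginine carrier Slc7a2 by -0.98 ± 0.11, the glutamine carrier Slc38a3 by -0.73 ± 0.11 and Slc38a4 by -0.42 ± 0.10, of which Slc38a4 turned positive under scaling by nuclei and no longer passed (adjusted p = 0.087 without mouse 2). Of 19 genes of serine, glycine and histidine breakdown, 10 were lower and 0 higher, with a median of -0.51 (0.21 under scaling by nuclei). Beside Sds and Hal these were Amdhd1 (-1.29 ± 0.11) and Uroc1 (-1.10 ± 0.10) of histidine breakdown and the glycine decarboxylase Gldc (-1.16 ± 0.12). The other 5, Ftcd (-0.72 ± 0.10), Cth (-0.71 ± 0.12), Cbs, Agxt and Gnmt, had a sign that turned positive under scaling by nuclei. The histidine enzymes Hal, Uroc1 and Amdhd1 each had all 4 perivenous means below all 4 periportal ones. Of 15 genes of tyrosine, phenylalanine and tryptophan breakdown, 2 were lower and 0 higher, with a median of 0.09. These were Kynu (-0.49 ± 0.10, positive under scaling by nuclei) and Tat. Tat, tyrosine aminotransferase, had 142, 229, 228 and 288 perivenously and 257, 500.1, 473 and 554 periportally, where the zones overlapped because mouse 1 was low in both, although each mouse was lower perivenously. Of 15 genes of branched-chain amino acid breakdown, 2 were higher and 0 lower: Hibadh (0.57 ± 0.11) and Aldh6a1 (0.39 ± 0.11). Aldh6a1 no longer passed (adjusted p = 0.104 without mouse 1, 0.054 without mouse 2, 0.117 without mouse 3 and 0.051 without mouse 4).

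The P450s of family 2 went both ways. Of 19 tested, 10 were higher and 2 lower perivenously, with a median of 0.80. Beside Cyp2e1, Cyp2c29, Cyp2a4, Cyp2c37 and Cyp2c50, the higher ones were Cyp2d10, with 646, 768, 450.2 and 849 perivenously and 252, 344, 234 and 329 periportally, and Cyp2c67 (1.11 ± 0.13), Cyp2b13 (0.94 ± 0.12), Cyp2d40 (0.80 ± 0.11) and Cyp2c38 (0.80 ± 0.13). The lower ones were Cyp2f2 and Cyp2a22 (-0.44 ± 0.11), which turned positive under scaling by nuclei and no longer passed (adjusted p = 0.084 without mouse 2, 0.076 without mouse 3 and 0.096 without mouse 4). Cyp1a2, the methylxanthine-oxidising P450 and the 1 member of family 1 tested, had 169.7, 114, 98.2 and 265 perivenously and 38.9, 29.1, 51.2 and 55.8 periportally. In family 4, whose members oxidise fatty acids, 3 of 11 were higher and 0 lower: Cyp4a10 (1.20 ± 0.12), Cyp4a12a (0.87 ± 0.15) and Cyp4a14 (0.57 ± 0.11). In family 3 none of 3 passed, and Cyp3a25 differed by 0.32 ± 0.10 with an adjusted p of 0.071. Probes of near-identical P450, glutathione transferase and urinary protein genes can bind each other's transcripts, so values of single members of these families are uncertain.

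Of 14 receptors and P450 partners, 4 were higher perivenously and 1 lower. Por, P450 oxidoreductase, had 157, 149, 114 and 113 perivenously and 73.9, 86.5, 69.3 and 56.1 periportally. Cyb5a, cytochrome b5, which also feeds electrons to P450s, had 958, 734, 645 and 786 perivenously and 402, 391, 434 and 336 periportally. In both, the 12 perivenous AOIs lay above the 12 periportal AOIs. The other 2 were Nr1i3 and Ahr, and the lower gene was the hepatocyte factor Hnf4a (-0.45 ± 0.12), which turned positive under scaling by nuclei and no longer passed (adjusted p = 0.307 without mouse 2 and 0.155 without mouse 3). Of 22 genes of glutathione metabolism, 8 were higher and 2 lower, with a median of 0.21. Gstm2 (1.49 ± 0.15), Gstm3 (1.24 ± 0.15), Gstm1 (1.17 ± 0.11), Gsta3 (1.01 ± 0.14) and the microsomal Mgst1 (0.99 ± 0.11) were higher, while Gstp1 was lower, with 568, 499, 502 and 551 perivenously and 1009.5, 1125, 768 and 1695 periportally. Gstm1 was highest in mouse 1 and lowest in mouse 4 perivenously and periportally, with 1328, 860.3, 952 and 436 perivenously and 774, 397, 320.2 and 185 periportally, and its zones overlapped although every mouse was higher perivenously. Of 18 glucuronosyl- and sulfotransferases 4 were higher, led by Sult2a8 (1.13 ± 0.12), and 1, Sult5a1 (-0.45 ± 0.13), lower. Sult5a1 turned positive under scaling by nuclei and no longer passed (adjusted p = 0.099 without mouse 1, 0.097 without mouse 2, 0.061 without mouse 3 and 0.307 without mouse 4). Of 28 carboxylesterases and aldehyde dehydrogenases 8 were higher and 3 lower. Here Aldh3a2 and the retinal dehydrogenase Aldh1a1 (1.12 ± 0.11) were higher and the mitochondrial Aldh1b1 was lower (-1.27 ± 0.12).

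Of 24 genes of bile acid synthesis and transport, 11 were higher perivenously and 1 lower, with a median of 0.35. The lower one was the oxysterol hydroxylase Cyp39a1 (-0.42 ± 0.13), which turned positive under scaling by nuclei and no longer passed (adjusted p = 0.124 without mouse 1, 0.341 without mouse 3 and 0.072 without mouse 4). Cyp7a1, the rate-limiting enzyme of the main route, had 50.4, 47.7, 44.2 and 39.7 perivenously and 22.9, 16.4, 26.6 and 25 periportally. Its periportal values were at background, and 6 of 12 perivenous AOIs against 0 of 12 periportal ones passed the limit of quantitation. Cyp27a1, which opens the alternative route, had 118, 98.5, 89.7 and 123 perivenously and 53.9, 40.7, 47.9 and 44.4 periportally, and Cyp7b1 of the same route differed by 1.03 ± 0.15. The uptake carriers Slco1b2 (1.36 ± 0.11) and Slco1a1 (1.16 ± 0.11) were higher too. Slco1b2 had 594, 508, 369 and 615 perivenously and 207, 215, 192 and 180.3 periportally, with no overlap between AOIs of the zones.

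Of 21 genes of lipid droplets and fatty acid uptake, 9 were higher and 1, Hsd17b13, lower, with a median of 0.32 against 0.03 for all genes. Plin2, the coat protein of lipid droplets, had 395, 366, 317 and 269.6 perivenously and 276, 259.5, 208 and 181 periportally, and each mouse was higher perivenously although the zones overlapped. Cidec, which fuses droplets, had 76.6, 67.4, 68.8 and 42.5 perivenously and 37.7, 32, 31.4 and 27.2 periportally, with no overlap of the means. G0s2, an inhibitor of lipolysis, had 171, 256, 117 and 244 perivenously and 89.6, 168, 70.6 and 82.7 periportally, where the zones overlapped because mouse 2 was high in both. The fatty acid transporter Cd36 (0.69 ± 0.12), the fatty acid carriers Fabp2 (0.70 ± 0.10) and Fabp4 (0.52 ± 0.12), Hsd17b11 (0.69 ± 0.13), Plin4 (0.90 ± 0.15) and the lipid-sensing receptor Pparg (0.45 ± 0.11) were also higher. Pparg no longer passed (adjusted p = 0.058 without mouse 1 and 0.08 without mouse 3). Of 18 genes of peroxisomal oxidation 6 were higher and 1, the urate oxidase Uox (-1.03 ± 0.10), lower. Of 23 genes of mitochondrial fatty acid oxidation and ketogenesis 5 were higher and 0 lower, with a median of 0.20, all 5 below the threshold of 0.80. The largest of these was Eci2 (0.71 ± 0.11). Lipogenesis was divided, with 4 of 18 genes higher and 2 lower. Thrsp (0.77 ± 0.10), the acyltransferase Agpat2 (0.68 ± 0.12), the desaturase Scd1 (0.57 ± 0.12) and malic enzyme, Me1 (0.51 ± 0.11), were higher, and Me1 no longer passed (adjusted p = 0.064 without mouse 2). Lpin1 was lower by the test (-0.50 ± 0.12) but turned positive under scaling by nuclei and no longer passed (adjusted p = 0.067 without mouse 2 and 0.07 without mouse 3). Acly, ATP-citrate lyase, was lower, with 69.5, 71, 92.9 and 31.5 perivenously and 124, 124, 137 and 113 periportally. Its sign stayed negative under scaling by nuclei (-0.28), but it did not pass there (limma adjusted p = 0.387). None of 20 genes of cholesterol synthesis passed, and their median was -0.04.

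For glucose output, 3 of 11 genes were lower perivenously and 1 higher. Pck1, phosphoenolpyruvate carboxykinase, had 457, 473, 478 and 517 perivenously and 719, 962, 979 and 921 periportally. Fbp1, fructose bisphosphatase, had 286, 307, 279 and 252 perivenously and 533, 703, 666 and 578 periportally. In both genes no AOI of one zone reached into the range of the other. Pcx, pyruvate carboxylase, was the 1 that was higher (0.45 ± 0.10), and it no longer passed (adjusted p = 0.067 without mouse 1). Of 18 genes of glycolysis 6 were lower and 1, Ldha (0.40 ± 0.10), higher, and Ldha no longer passed (adjusted p = 0.067 without mouse 2 and 0.112 without mouse 4). The median of this list was -0.12, or 0.59 under scaling by nuclei. In the TCA cycle 2 of 22 genes were higher and 1 lower, and of 20 chaperones and stress genes of the endoplasmic reticulum 0 were higher and 2 lower. Over all genes 2.65% were higher and 2.68% lower, and no result is drawn from these small counts. None of 12 genes of glycogen metabolism and glycophagy passed the test in either direction, with a median of 0.02. The 4 with the smallest adjusted p were Stbd1, the glycogen-binding protein of glycophagy (0.37 ± 0.12, adjusted p = 0.074, or 0.049 without mouse 3), the liver glycogen synthase Gys2 (-0.31 ± 0.12, 0.166), Pgm1 (0.21 ± 0.11, 0.393) and Ppp1r3b (0.15 ± 0.11, 0.574). Gaa differed by -0.01 ± 0.15 between the zones, with 2 mice higher and 2 lower. It was near background, over the limit of quantitation in 3 of 12 AOIs of each zone. Of 30 lysosomal and autophagy genes, 3 were lower perivenously and 0 higher. These were the cathepsins Ctsl (-0.66 ± 0.10), Ctsb (-0.42 ± 0.11) and Ctsz (-0.39 ± 0.11), and all 3 turned positive under scaling by nuclei. Ctsb no longer passed (adjusted p = 0.082 without mouse 1 and 0.163 without mouse 2), and Ctsz no longer passed (adjusted p = 0.186 without mouse 1 and 0.182 without mouse 2).

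Of 35 plasma proteins and protease inhibitors, 21 were lower perivenously and 1 higher, with a median of -0.42 that became 0.28 under scaling by nuclei. Alb, serum albumin, had 17557, 12747, 15484 and 7946 perivenously and 39505, 32133, 32747 and 24531 periportally. Hpx, hemopexin, had 546, 312, 509 and 384 perivenously and 1886, 1247, 1101 and 1049 periportally. Mouse 4 was the lowest in both zones for albumin, and no AOI of the zones overlapped in either gene. The 1 that was higher was Rbp4, the retinol carrier (0.41 ± 0.12), which no longer passed (adjusted p = 0.174 without mouse 1, 0.106 without mouse 2 and 0.126 without mouse 4). Itih3, Serpina1a, Ahsg and Itih4 followed albumin, with log2 differences of -1.17 ± 0.10, -1.01 ± 0.11, -0.95 ± 0.11 and -0.89 ± 0.10. Of 35 complement and coagulation genes 11 were lower and 1 higher, Mbl2 (0.35 ± 0.10), with a median of -0.21 (0.50 under scaling by nuclei). Mbl2 no longer passed (adjusted p = 0.061 without mouse 1, 0.338 without mouse 2 and 0.09 without mouse 3). All 3 fibrinogen chains were lower. Fgb had 722, 471, 579.7 and 546 perivenously and 1394, 948, 1130.1 and 1186 periportally, and Fga (-0.96 ± 0.10) and Fgg (-0.84 ± 0.10) differed by similar amounts. C3, the central complement protein, differed by -0.89 ± 0.11 and C9 by -0.94 ± 0.10. Of 22 apolipoproteins and assembly genes 8 were lower and 1 higher, with a median of -0.21 (0.50 under scaling by nuclei). Apoa4 had 677, 393, 472 and 282 perivenously and 1605, 1349, 645 and 1146 periportally, with mouse 3 giving the smallest gap, and the zones overlapped. Apoc2 had 251, 225, 253 and 173 perivenously and 546, 593, 573 and 548 periportally, with no overlap. The 1 that was higher was Angptl8, an inhibitor of lipoprotein lipase (0.47 ± 0.11), which no longer passed (adjusted p = 0.135 without mouse 4). Igf1, the growth factor made by hepatocytes, was lower as well (-0.82 ± 0.10). Among 22 genes of iron, heme and acute phase, 3 were lower and 2 higher. The lower ones were Hamp, Hamp2 (-0.90 ± 0.18) and the iron exporter Slc40a1 (-0.52 ± 0.12, positive under scaling by nuclei), and the higher ones the heme synthesis enzymes Alad (0.58 ± 0.11) and Cpox (0.51 ± 0.11). Hamp2 no longer passed (adjusted p = 0.104 without mouse 3), and Slc40a1 no longer passed (adjusted p = 0.072 without mouse 3 and 0.06 without mouse 4). Rida (-1.10 ± 0.10) and Aspg (-1.04 ± 0.11), chosen after their values were seen, were the next largest falls in no list after Mt1, Slc3a1 and Mt2.

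Promoters of the called genes were searched for short motifs on both strands, in windows of 250 bases before to 50 after the start of a gene (RefSeq, GRCm38.p6). A window was given for 42 of the 58 genes higher and for 49 of the 62 lower perivenously. The HNF1 motif GTTAATNA was in 22.4% of the lower genes' windows (11 of 49), against 2.38% of the higher genes' (1 of 42), 1.99% of those of 5966 genes tested and 2.63% of all 27025 windows. The 11 genes were Alb, Fga, Pck1, Apoc2, Slc3a1, Spp1, C8a, Hc, Afm, Hgfac and Upp2. The TCF/LEF motif CTTTGAT was in 9.52% of the higher genes' windows (4 of 42: Cyp2c29, Slc1a2, Sult2a8 and Lect2), against 2.04% of the lower genes' (1 of 49, Hal), 2.5% of those of genes tested and 3.72% of all windows. The TATA box TATAAA was in 28.6% of the higher and 18.4% of the lower genes' windows, against 8.08% of those of genes tested and 14.2% of all. The HNF4 motif CAAAGTCCA was in 1 window of the higher and 1 of the lower genes, against 0.453% of those of genes tested and 0.477% of all. The other HNF4 motif, GGTCAAAG, was in 0 windows of the higher and 2 of the lower genes, against 1.14% of those of genes tested and 0.955% of all. These motifs do not share positions in the windows shown. Shares were not tested, and a match is a run of letters, not a shown binding site. Windows of 2 genes higher perivenously (Cyp2e1, with a TATA box 31 bases before the start, and Cyp2c29, with a TCF/LEF motif 119 and a TATA box 19 bases before it) and of 2 lower (Alb and Fga, with HNF1 motifs 32 and 45 bases before it) are shown 5′ to 3′, all on the + strand, with the motifs in capitals. Distances are counted from the transcript start on which each window was built, which for Cyp2c29 lies downstream of the gene's first base given above. The windows lie at chr7:140763569-140763868, chr19:39286835-39287134, chr5:90460620-90460919 and chr3:83025903-83026202.
Cyp2e1: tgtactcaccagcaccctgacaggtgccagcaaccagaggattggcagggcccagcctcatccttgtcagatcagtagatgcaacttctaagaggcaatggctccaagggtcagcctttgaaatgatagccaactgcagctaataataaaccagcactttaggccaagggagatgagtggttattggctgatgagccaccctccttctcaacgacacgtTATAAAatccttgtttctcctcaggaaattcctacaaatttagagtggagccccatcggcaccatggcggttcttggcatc
Cyp2c29: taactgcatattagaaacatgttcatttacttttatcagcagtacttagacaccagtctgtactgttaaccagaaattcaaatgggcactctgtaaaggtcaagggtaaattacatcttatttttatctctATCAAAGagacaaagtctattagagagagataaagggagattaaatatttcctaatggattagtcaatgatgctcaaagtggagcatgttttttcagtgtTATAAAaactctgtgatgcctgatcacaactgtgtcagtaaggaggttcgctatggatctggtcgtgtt
Alb: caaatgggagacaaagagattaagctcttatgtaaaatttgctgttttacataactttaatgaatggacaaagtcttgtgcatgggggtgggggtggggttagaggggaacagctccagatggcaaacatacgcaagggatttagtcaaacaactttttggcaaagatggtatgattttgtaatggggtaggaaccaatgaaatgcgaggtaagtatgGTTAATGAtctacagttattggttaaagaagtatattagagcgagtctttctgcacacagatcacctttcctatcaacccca
Fga: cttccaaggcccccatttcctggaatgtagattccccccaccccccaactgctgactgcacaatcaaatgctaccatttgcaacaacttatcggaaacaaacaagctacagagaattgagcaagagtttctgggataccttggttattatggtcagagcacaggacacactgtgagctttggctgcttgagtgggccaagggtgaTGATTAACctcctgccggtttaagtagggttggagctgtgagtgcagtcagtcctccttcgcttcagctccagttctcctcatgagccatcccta

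Of 11 tested major urinary proteins and growth hormone targets, 6 were higher perivenously and 0 lower, with a median of 0.73. Mup13, a secreted urinary pheromone carrier, had 3466, 5065, 2822 and 13622 perivenously and 484, 958, 1048 and 4844 periportally. Mouse 4 was well above the other mice in both zones, so the zones overlapped although each mouse was higher perivenously. The same mouse was highest in both zones for Slco1a1 and Cyp7b1 of this list. Cyp2b13 of the list was lowest in mouse 4, with 192, 137, 127 and 75.9 perivenously and 76.5, 101, 76 and 31.1 periportally.

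Of 14 cholangiocyte markers 2 were tested, Spp1 and Epcam, and the keratins that define these cells were not analysed here. Spp1, osteopontin, which bile duct cells and macrophages make, had 18.1, 19.3, 23.4 and 21.7 perivenously and 93.3, 38.9, 54.9 and 23.3 periportally, with mouse 1 far above and mouse 4 near background periportally. Epcam had 31.7, 33.5, 42.5 and 38.6 perivenously and 29, 31.2, 33 and 31.5 periportally and was over the limit of quantitation in 1 of 24 AOIs. The summed level of both was 49.7 to 65.9 perivenously and 54.9 to 122 periportally, and its part in the genes lower perivenously was not tested. Of 8 stellate cell and portal fibroblast markers tested of 18, 1 was higher, the matrix proteoglycan Dcn, with 170.2, 139.7, 87.9 and 77.8 perivenously and 127, 91.3, 77.6 and 60.3 periportally. Dcn no longer passed (adjusted p = 0.072 without mouse 1 and 0.214 without mouse 2). The sum of the 8 was 372 to 691 perivenously and 391 to 569.9 periportally. Of 10 endothelial markers tested of 20, 1, the scavenger receptor Stab2, was higher (0.58 ± 0.12, adjusted p = 0.076 without mouse 3), with a sum of 414 to 509.9 perivenously and 408 to 467 periportally. Of 11 Kupffer cell markers tested of 16, 2 were lower, Spp1 and the defining lectin Clec4f (-0.42 ± 0.11), and Clec4f turned positive under scaling by nuclei and no longer passed (adjusted p = 0.11 without mouse 2 and 0.077 without mouse 3). The sums of the 11 were 527 to 752 perivenously and 597 to 888 periportally. None of 14 lymphocyte markers was among the genes tested, and 0 of 2 neutrophil and 0 of 2 erythrocyte markers passed. Over all genes 2.65% were higher and 2.68% lower at the same threshold.

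**Figure D3:**
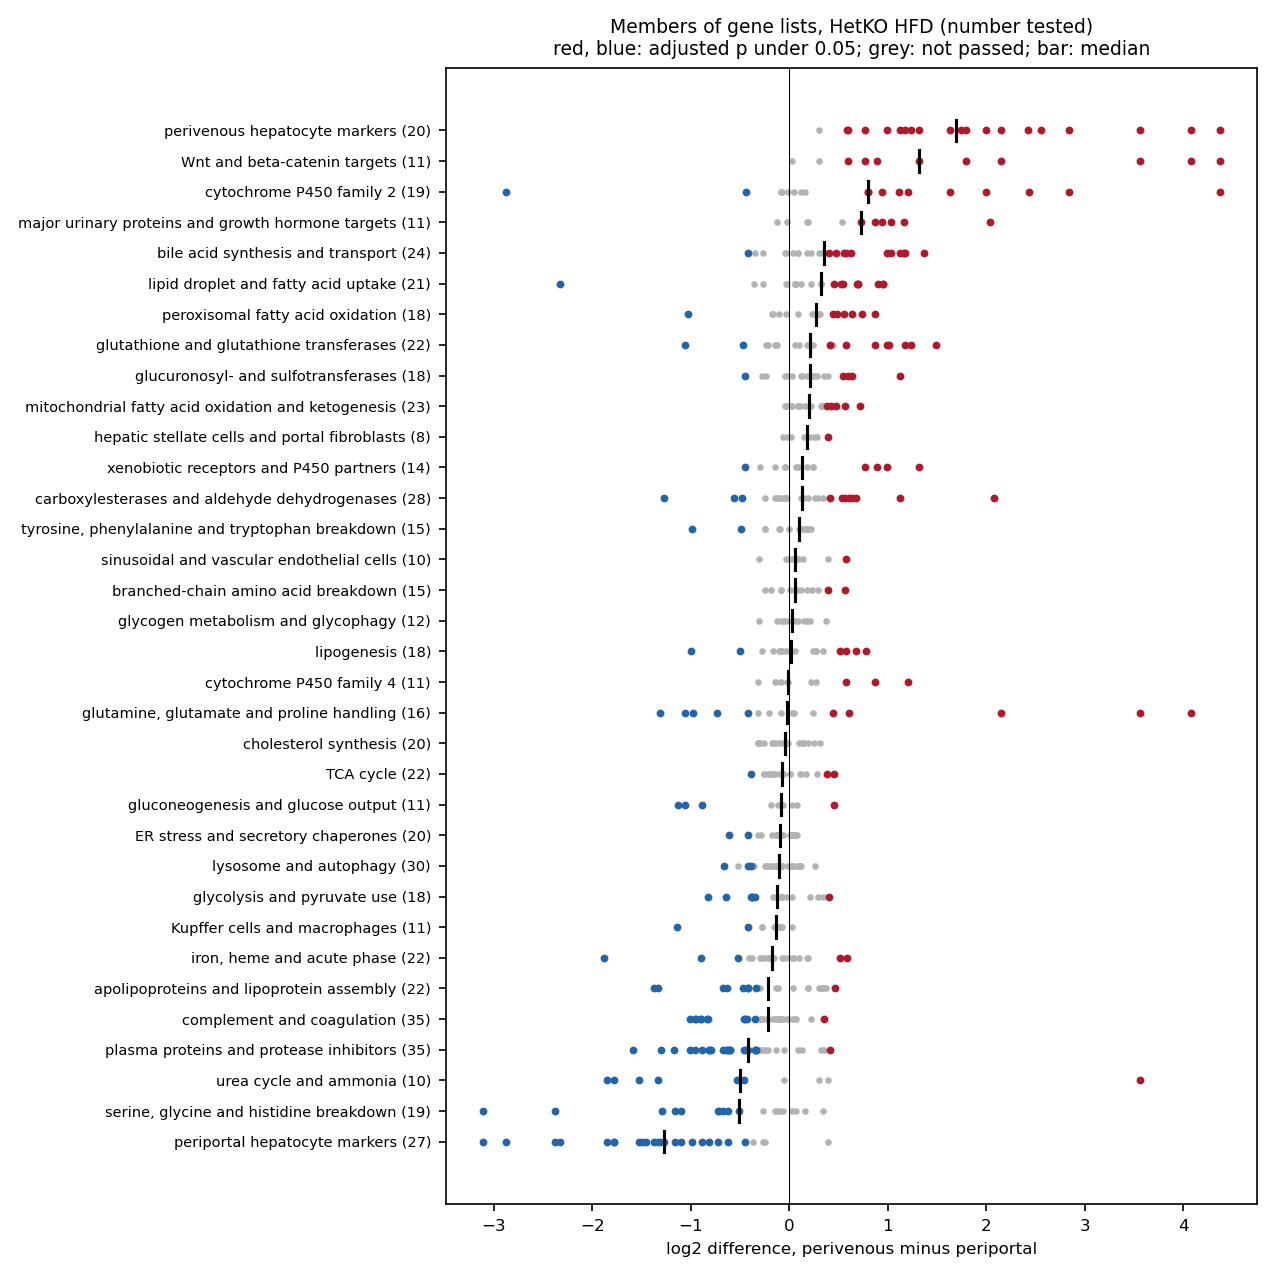
Log2 difference, perivenous minus periportal, of the members of each gene list with at least 8 genes tested, with red and blue for an adjusted p under 0.05, grey for genes that did not pass and a bar for the list's median. Perivenous markers (median 1.69) and periportal markers (-1.27) lie at the ends, Hsd17b13 and Cyp2f2 are the far blue points of their lists, and glycogen and cholesterol synthesis lists hold grey points only.

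The 4 perivenous means lay above the 4 periportal ones for 283 genes (3.83%) and below them for 236 (3.19%), and 49 of 58 called higher and 56 of 62 called lower genes were among these. All 12 perivenous AOIs lay above all 12 periportal ones for 36 genes (0.487%) and below them for 52 (0.703%), 34 and 44 of them called. AOIs of a mouse are not replicates. Slc1a2, Cyp2c37, Gulo and Serpina7 were over the limit of quantitation in all 12 perivenous and 0 periportal AOIs, and Sds, Etnppl, Hsd17b6 and Aldh1b1 in all 12 periportal and 0 perivenous ones. The low zone was over the limit in 6 or fewer AOIs for 31 of the 58 higher and 18 of the 62 lower genes, so the value there was close to the background. Mice differed in the size of the gap for the genes higher perivenously: its median over the 58 genes was 1.41, 1.28, 0.93 and 1.45 in mice 1 to 4. For the 62 lower genes the medians were -1.03, -1.10, -1.10 and -1.10. Mouse 3 gave the smallest gap of the 4 for 52 of the 120 called genes.

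The zone differences were next set against those of mice that shared the diet but not the genotype. Of 7394 genes, 0 (0.0%) had a zone difference in HetKO HFD that differed from that in Wt HFD at an adjusted p under 0.05 in limma, while 412 (5.57%, near the 5% that such a threshold gives by itself) did so at an unadjusted p under 0.05 and 10 in edgeR on recovered reads. All 58 genes higher and all 62 lower in HetKO HFD had the same sign in Wt HFD, where 45 and 51 passed the test. The shares of all genes that passed or kept their sign in Wt HFD are not given here, so no result is drawn from these counts. Their median zone difference in Wt HFD was 0.94 for the higher and -0.89 for the lower genes, against 1.17 and -1.04 in HetKO HFD, whose values had chosen the genes. The 5 genes with the smallest p were all lower perivenously and further so in HetKO HFD. Etnppl differed between the zones by -1.02, -2.02, -2.29 and -1.80 in HetKO HFD mice 1 to 4, against -1.09, -0.94, 0.15 and -0.47 in Wt HFD mice. The difference of these differences was -1.19 ± 0.24 (SE, adjusted p = 0.138). For Sds, Amdhd1, Upp2 and Hsd17b6 it was -0.89, -0.83, -0.76 and -0.90, each with an adjusted p of 0.142. Upp2, uridine phosphorylase, had 58.9, 59.1, 65.4 and 49.9 perivenously and 96.8, 135, 102 and 98.6 periportally in HetKO HFD mice. Without Wt HFD mouse 1 the count was 9, and without HetKO HFD mouse 1 it was 1. The negative probe was at 30.6 perivenously and 29.7 periportally in Wt HFD, against 25.8 and 23.6 in HetKO HFD, and 19% and 23% of genes passed the limit of quantitation there, against 40.4% and 39.2%. The part of this background in the differences was not tested.

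In mice that shared the genotype but ate the low-fat diet, 5 genes (0.0676%) had another zone difference than in HetKO HFD, and 423 (5.72%) at an unadjusted p under 0.05. In 4 of the 5, all higher perivenously, the gap was smaller in HetKO HFD. Cyp1a2 differed between the zones by 2.10, 1.93, 0.93 and 2.23 in HetKO HFD mice, against 3.31, 3.12, 3.52 and 2.90 in HetKO LFD mice, with no overlap (difference -1.41 ± 0.20, adjusted p = 8.7e-04). Cyp2c29 differed by 3.38, 3.02, 2.28 and 2.69 in HetKO HFD mice, against 4.31, 3.60, 4.32 and 3.96 in HetKO LFD mice (difference -1.20 ± 0.19, adjusted p = 0.0023). Slc1a2 and Cyp2c37 had differences of -1.08 ± 0.19 and -1.03 ± 0.20 between the groups. Gls2, lower perivenously, also had the smaller gap in HetKO HFD, with -0.89, -1.23, -1.49 and -1.67 in its mice, against -2.88, -1.60, -2.47 and -2.71 in HetKO LFD mice (difference 1.10 ± 0.21, adjusted p = 0.023). The 58 genes higher and the 62 lower perivenously, chosen by their HetKO HFD values, all had the same sign in HetKO LFD. There 54 and 59 passed, with medians of 1.51 and -1.06. As the shares of all genes that passed or kept their sign in HetKO LFD are not given here, no result is drawn from these counts. The background differed in this comparison as well. The negative probe stood at 19.5 perivenously and 18.6 periportally in HetKO LFD, against 25.8 and 23.6 in HetKO HFD. The limit of quantitation was passed by 63.6% and 62.2% of genes in HetKO LFD, against 40.4% and 39.2%. Sequencing saturation went down to 64.1% perivenously and 66.8% periportally in HetKO LFD AOIs, against 88.1% and 88.8% in HetKO HFD. The part of detection and saturation in the differences was not tested. After the negative probe was subtracted in each AOI, 0 genes passed: the differences then were -1.56 for Cyp1a2, -1.19 for Cyp2c29, -0.67 for Slc1a2, -1.76 for Cyp2c37 and 0.46 for Gls2. Counts without 1 mouse ran from 2 to 31, the highest without HetKO LFD mouse 4, and were 2 without HetKO LFD mouse 1 or 3 and without HetKO HFD mouse 2 or 3.

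**Figure D4:**
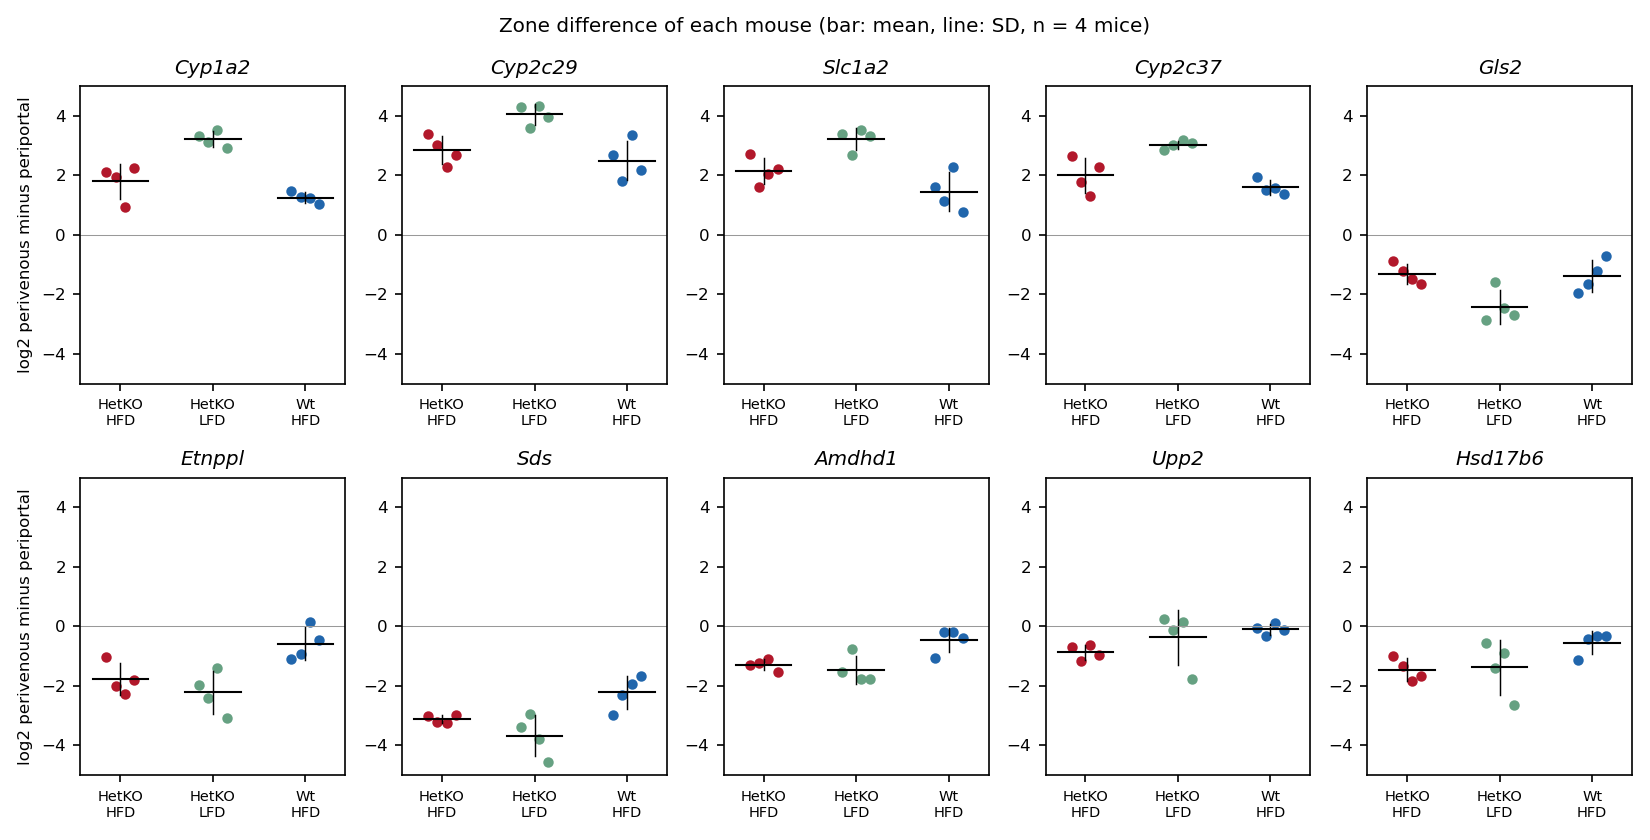
Log2 difference, perivenous minus periportal, in each mouse of HetKO HFD, HetKO LFD and Wt HFD (points), with the mean as a bar and the SD as a line, for the 5 genes that differed from HetKO LFD (upper row) and the 5 with the smallest p against Wt HFD (lower row). Cyp1a2, Cyp2c29, Slc1a2 and Cyp2c37 lie lower in HetKO HFD than in HetKO LFD, and Gls2 lies closer to 0.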

How the data were processed

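Liver sections were profiled on the GeoMx Digital Spatial Profiler with mouse whole-transcriptome probes. Per the labels and file headers, the authors ran the GeoMx NGS Pipeline 2.3.3.10, which matched tags to probes and removed duplicates by molecular identifier (genome build named in the submitters' notes: mm10). The deposited gene values are a signal: deduplicated read counts multiplied by 1 factor per AOI, which made the third quartile the same in every AOI (found from the values; the methods describe scaling to nuclei). Dividing by each factor gave whole reads for 99.9% of values (tolerance 0.01), with 5 targets not whole. The AOI summary as deposited gave nuclei counts, read counts, sequencing saturation in percent, the negative probe signal and the limit of quantitation. A further 11 numeric columns of the AOI summary, which describe the same AOIs, were not used.

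Here the mean of log2(scaled count + 1) over 3 AOIs per mouse and zone entered limma 3.58.1 (R 4.3.3, trend on mean level, mouse as a block), with Benjamini-Hochberg adjustment over 7394 genes. The zones of a mouse come from the same animal, and their deviations from the zone means correlated at 0.42, 0.19, 0.20 and 0.58 across genes in mice 1 to 4. A fold change on the log2(scaled count + 1) scale, with the background left in, understates the change of dim genes. After subtraction of the negative probe the median zone difference was 3.08 for perivenous and -1.94 for periportal markers, against 1.69 and -1.27. Differences of zone differences were fitted to 1 value per mouse. Mice are separate animals, and AOIs of a mouse were never counted as replicates. Precision rests on 4 mice, and no counting interval was used. edgeR 4.0.16 on recovered reads called 122 genes between the zones. DESeq2 1.42.0, the methods' tool, called 116 on rounded means of the scaled counts. Both were alternatives beside other scalings, filters, a pseudocount of 5 and leaving out each mouse. The main zone fits by limma, edgeR and DESeq2 and the main fits of zone differences were run on simulated data. The other scalings, the filters, the fits with no trend and the zone fit without the mouse block were not. Genes were named by rule: the 15 largest rises and falls among called genes with no overlap of mouse means, fixed markers, members of gene lists that passed (or the 4 with the smallest p), and the leading genes of each comparison between groups. The members and lists were chosen with earlier results of these data known. Promoters are RefSeq sequences of GRCm38.p6. Gene coordinates are mm10. Some results are not reported here.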

Additional observations from a re-analysis of the deposited data

Results flagged for a closer look

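In 7 named genes the zone difference of 1 mouse stood apart from the other 3, measured as its gap to the nearest mouse over the whole range, past Dixon's 95% critical value for 4 mice. Chance flags about 1 in 20 such groups, and 151 genes were looked at. The ratio was 0.925 for Cyp2f2, where mouse 4 had the largest gap, at -3.48 on the log2 scale. It was 0.919 for Rgn, where mouse 3 had the smallest, at 1.46. It was 0.871 for Gsta3, with mouse 4 the largest at 1.87, and 0.835 for Fbp1, with mouse 1 the smallest at -0.89. It was 0.860 for Otc, where mouse 2 had nearly no gap, at -0.03. It was 0.913 for Kynu and 0.869 for Hsd17b11, where mouse 3 had the smallest gaps, at -0.41 and 0.15.

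The zone difference differed between HetKO HFD and HetKO LFD mice, by the limma test of the difference itself, for Cyp1a2 (adjusted p = 8.7e-04), Cyp2c29 (0.0023), Slc1a2 (0.015), Gls2 (0.023) and Cyp2c37 (0.023). In each the gap was smaller in HetKO HFD, and in none did the test pass once the negative probe was subtracted. Diet and slide cannot be told apart in this comparison.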

How the results depend on the processing

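All 120 genes called between the zones kept their sign under every alternative in which they were tested. The count of called genes was 244 after subtraction of the negative probe, 2432 under scaling by nuclei (70 of them shared with the 120), between 99 and 122 under the others, and 115 to 128 without 1 mouse. Genes higher at the adjusted p alone numbered 4110 by nuclei, 83 in DESeq2 and 155 to 172 without 1 mouse, against 196. Genes lower numbered 15 by nuclei, 103 in DESeq2 and 139 to 187 without 1 mouse, against 198. The 15 lower by nuclei were the 15 largest falls named above. The other genes called lower, Alb, Pck1, Fbp1 and Fgb among them, did not pass as lower by nuclei. With the pairing by mouse left out (no replicate block), 113 genes were higher and 98 lower, and 113 were called. For zone differences against Wt HFD, edgeR gave 10 genes against 0, and leaving out 1 mouse gave 0 to 9. Against HetKO LFD, where 5 genes passed, edgeR gave 12, the fit of all 16 mice 3, the variance model with no trend 2 and the stricter detection filter 2. Subtraction of the negative probe, scaling by nuclei and leaving out the pairing by mouse each gave 0, and leaving out 1 mouse gave 2 to 31. Scaling by nuclei turned 19 named genes that had passed as lower positive, namely Agxt 0.089, Cbs 0.049, Clec4f 0.30, Cth 0.00054, Ctsb 0.29, Ctsl 0.060, Ctsz 0.33, Cyp2a22 0.28, Cyp39a1 0.28, Ftcd 0.00011, Gnmt 0.21, Hnf4a 0.27, Kynu 0.23, Lpin1 0.21, Otc 0.25, Slc25a15 0.19, Slc38a4 0.30, Slc40a1 0.19 and Sult5a1 0.24. It also turned 3 named genes that had not passed, Cdh1 (0.25), Gys2 (0.40) and Gaa (0.69). The cause of these changes was not tested. Of the 727 genes over the limit of quantitation in none of the 24 AOIs, 0 were called.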
